A study of Mus musculus with 6 samples.

Results

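Microglia are the resident macrophages of the retina, and in the unchallenged tissue they keep a characteristic set of surface receptors and regulators that senses nucleotides, lipids and sialic acids around them. These homeostatic genes depend on TGF-β signalling and on transcription factors such as Sall1, and in injured neural tissue they are commonly turned down while activation genes are turned up. The 9 genes P2ry12, P2ry13, Tmem119, Fcrls, Sall1, Siglech, Gpr34, Selplg and Olfml3, were chosen by name as markers of homeostatic microglia and were followed in whole retinas of mice. They are 9 of the 32285 genes in the count table, and all 9 were among the 20021 genes that reached a total of 10 reads and were tested.

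All retinas came from wild-type C57BL/6J pups with oxygen-induced retinopathy (OIR), a model in which 75% O2 from postnatal day (PN) 8 to PN13 removes the central capillaries and the return to room air is followed by abnormal vessel growth. The OIR-CIH group (n = 3) was then exposed to chronic intermittent hypoxia, given as 266 cycles of 135 s in 10 h each day between 20.95% and 5% O2, and the OIR-Norm group (n = 3) to the same gas flow with constant oxygen. Eyes were collected at PN18. The paper names 3 eyes per group, and there are 3 bulk RNA-seq libraries per group, but it does not state that each library came from 1 eye. There was no group without OIR and none with sorted microglia, so every value below compares 2 kinds of ischemic retina, and the sources used here do not say whether the 3 eyes of a group came from separate animals. P-values therefore measure the spread between these libraries.

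The libraries held 26289905 to 38010151 counted reads. All 16 retinal cell type genes were detected, among them Nr2e3, a rod transcription factor gene, with 894 to 1599 CPM (reads scaled to a common library total with TMM factors), so the retinal label held. The 18 crystallin genes, which encode lens proteins, summed to 1014 CPM in OIR-Norm replicate 2 against 73.5 to 169 CPM in the other 5 libraries. Xist, made by female cells, ranged from 298 to 1653 CPM, and the summed Y-linked genes of male cells from 57.3 to 184 CPM. Both were present in all 6 libraries at unequal levels. OIR-Norm replicate 2 had the most Xist with 69.7 CPM of Y-linked RNA, and OIR-Norm replicate 1 the least Xist with 172 CPM. Each library thus held RNA of both sexes, which 1 eye of 1 pup would not give, and how this arose was not tested. Crystallins and Xist were looked at after the values were known.

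RefSeq promoter windows (GRCm38.p6, 250 bases before the start) were available for 6 of the 9 genes and not for Tmem119, Gpr34 and Selplg. They are printed for Fcrls, which was the gene called between groups, for Sall1, Siglech and P2ry13, whose groups did not overlap, and for P2ry12, the neighbour of P2ry13. Capitals mark GAGGAA or AGGAAGT on either strand, 2 spellings of the purine-rich site bound by PU.1 and related ETS factors of the macrophage lineage. The spellings can share the letters AGGAA, and each sequence reads 5′ to 3′ along the gene's strand. Of the 3 windows for Sall1, the printed one is that which holds a match. It lies inside the Sall1 gene body of the GENCODE M21 annotation (chr8:89027235-89044162). The window next to that annotated start (chr8:89044163-89044412) held neither spelling.
Fcrls, chr3:87263525-87263774, minus strand: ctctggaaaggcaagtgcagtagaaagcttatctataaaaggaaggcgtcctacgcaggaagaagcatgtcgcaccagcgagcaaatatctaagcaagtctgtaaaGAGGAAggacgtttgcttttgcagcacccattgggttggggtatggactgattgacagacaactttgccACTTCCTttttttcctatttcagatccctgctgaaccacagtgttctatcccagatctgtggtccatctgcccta
P2ry13, chr3:59210883-59211132, minus strand: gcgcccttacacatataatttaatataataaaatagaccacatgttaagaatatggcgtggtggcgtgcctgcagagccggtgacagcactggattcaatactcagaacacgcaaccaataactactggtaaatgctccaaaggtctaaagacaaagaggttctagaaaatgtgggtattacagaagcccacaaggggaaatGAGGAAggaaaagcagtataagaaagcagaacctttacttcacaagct
P2ry12, chr3:59262986-59263235, minus strand: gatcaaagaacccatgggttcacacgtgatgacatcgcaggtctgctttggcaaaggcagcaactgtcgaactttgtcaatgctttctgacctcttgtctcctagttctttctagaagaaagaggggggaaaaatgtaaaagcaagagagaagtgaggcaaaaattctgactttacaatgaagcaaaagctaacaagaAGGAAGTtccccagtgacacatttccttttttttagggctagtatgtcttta
Sall1, chr8:89042863-89043112, minus strand: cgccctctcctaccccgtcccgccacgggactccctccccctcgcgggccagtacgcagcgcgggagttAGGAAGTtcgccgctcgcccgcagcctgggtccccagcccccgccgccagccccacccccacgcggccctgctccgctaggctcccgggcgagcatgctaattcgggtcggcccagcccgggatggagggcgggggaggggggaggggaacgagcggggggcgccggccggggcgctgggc
Siglech, chr7:55767934-55768183, plus strand: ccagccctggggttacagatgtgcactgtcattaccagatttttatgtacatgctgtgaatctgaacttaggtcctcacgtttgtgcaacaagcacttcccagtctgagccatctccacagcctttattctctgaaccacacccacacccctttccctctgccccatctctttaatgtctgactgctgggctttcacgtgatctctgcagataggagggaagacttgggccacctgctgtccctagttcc
Across all 32851 promoters in the table, 23.3% held GAGGAA, 7.69% held AGGAAGT and 27.3% held either. Of the 8 windows of the 6 genes, 2 held GAGGAA, 3 held AGGAAGT and 4 held either. Fcrls held both spellings, GAGGAA 144 bases and AGGAAGT (on the opposite strand) 75 bases before the start. The P2ry13 match lay 48 bases and the P2ry12 match 52 bases before the start, and the Sall1 match 181 bases before the start of its window. For Fcrls and Sall1 that RefSeq start lies inside the GENCODE gene body, so their matches are not upstream of the GENCODE start. Siglech and Olfml3 held neither spelling. These are matches of letters in these windows and not measured binding sites.

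In OIR-CIH, Fcrls was lower than in OIR-Norm by the thresholds of the study, an adjusted p under 0.05 with an absolute log2 fold change over 0.5. Sall1 and Siglech were also below OIR-Norm in every library pair without passing the adjusted threshold, and P2ry12, Selplg, Olfml3, Gpr34 and Tmem119 overlapped between groups. Fold changes are given as OIR-CIH minus OIR-Norm on the log2 scale, each from edgeR's quasi-likelihood test with Benjamini-Hochberg adjustment over all genes tested. Of the 9 genes, 1 was called lower, against 0.21% of all genes (0.315% in either direction), and none was called higher. DESeq2 also called 1 of the 9, lower, against 0.504% of all genes (0.674% in either direction), and 3 of the 9 were lower at an unadjusted p under 0.05, against 7.1% of all genes. A fold change below 0 was found for 8 of the 9, against 50.9% of all genes, and in 4 all OIR-CIH values were under all OIR-Norm values, against 9.26% of all genes. The median fold change of the 9 was -0.31, beside -0.01 over all genes tested. In bulk RNA, fewer microglia and less of these transcripts per microglial cell cannot be told apart.

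**Figure D1:**
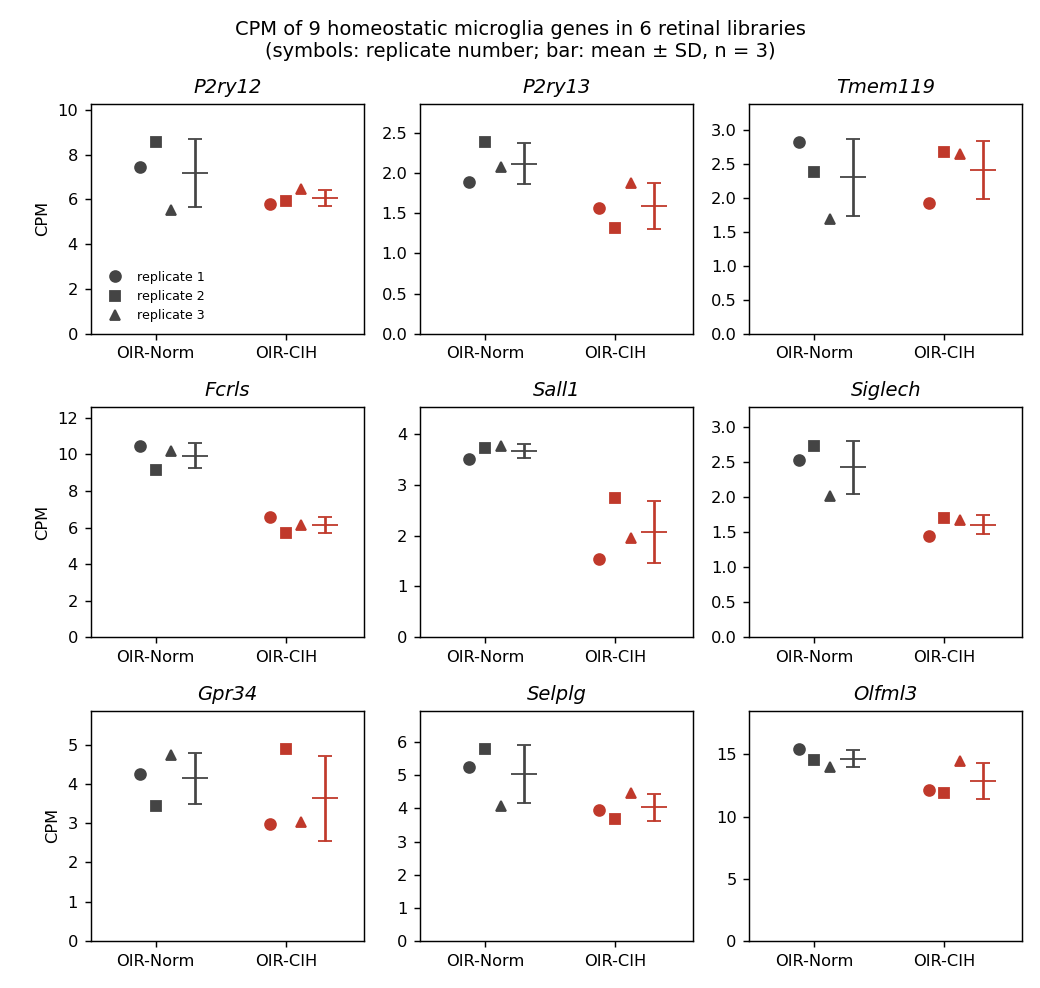
CPM (vertical axes, starting at 0) of each of the 9 genes in the 3 OIR-Norm (grey) and 3 OIR-CIH (red) libraries, with the mean ± SD beside the points and the symbol giving the replicate number. Fcrls, Sall1, Siglech and, by the narrowest margin, P2ry13 have no overlap between groups, and the points of Tmem119 and Gpr34 intermix.

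Fcrls encodes a secreted or surface scavenger-type member of the Fc receptor-like family that in the mouse brain is largely limited to microglia (chr3:87250758-87263738, minus strand, GENCODE M21 on GRCm38, as for the other genes). It stood at 6.59, 5.72 and 6.17 CPM in the OIR-CIH libraries and at 10.5, 9.16 and 10.2 CPM in the OIR-Norm libraries. The highest OIR-CIH library was well under the lowest OIR-Norm library, and the mean of 6.16 ± 0.436 CPM (SD, n = 3) was 61.9% of the 9.94 ± 0.695 CPM (SD, n = 3) in OIR-Norm. The log2 fold change was -0.69 (SE 0.12, 95% interval -0.96 to -0.43, edgeR adjusted p = 0.0293), which placed Fcrls at rank 63 of 20021 genes by p-value. The 9 genes were chosen with earlier results of these libraries known, so the choice of Fcrls is not independent of them. The call was lost in 5 of the 6 fits that left out 1 library, each except the fit without OIR-Norm replicate 2 (adjusted p = 0.0397 to 0.118 by edgeR over the 6), while the fold change stayed between -0.75 and -0.65.

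Sall1 encodes a zinc finger transcription factor that maintains microglial identity and is also expressed by other neural cells (chr8:89027235-89044162, minus strand). Its CPM was 1.53, 2.74 and 1.96 in OIR-CIH and 3.51, 3.72 and 3.77 in OIR-Norm. The OIR-Norm libraries lay close together, while OIR-CIH replicate 2 stood above the other 2 OIR-CIH libraries and still below every OIR-Norm library. The means were 2.08 ± 0.613 and 3.66 ± 0.140 CPM (SD, n = 3 each), a fold change of -0.81 (SE 0.21, 95% interval -1.27 to -0.36). This was the largest difference among the 9 genes, and it did not pass the adjusted threshold by edgeR (adjusted p = 0.174) or by DESeq2 (adjusted p = 0.0589).

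Siglech encodes a member of the family of sialic acid-binding lectins, found on microglia and plasmacytoid dendritic cells (chr7:55768178-55778925, plus strand). It was at 1.45, 1.70 and 1.67 CPM in OIR-CIH and at 2.53, 2.74 and 2.01 CPM in OIR-Norm. The groups did not overlap, with OIR-Norm replicate 3 nearest to the OIR-CIH libraries, and the fold change was -0.58 (SE 0.21, 95% interval -1.05 to -0.11, edgeR adjusted p = 0.297). Siglech rested on few reads, 149 over the OIR-CIH libraries and 220 over the OIR-Norm libraries. The 8 markers of plasmacytoid dendritic cells summed to 180.8 to 193.5 CPM in OIR-CIH and 165.0 to 167.9 CPM in OIR-Norm, higher in OIR-CIH without overlap, and most of that sum came from Tcf4 and Irf7, which many cells express. Irf7 was at 46.9 ± 2.75 CPM in OIR-CIH and 33.2 ± 5.56 CPM in OIR-Norm and Bst2 at 5.40 ± 1.37 and 3.16 ± 1.11 CPM (SD, n = 3 each, fold changes 0.50 and 0.80, edgeR adjusted p = 0.127 and 0.254). Ccr9, a chemokine receptor gene, was at 5.88 ± 1.37 and 7.67 ± 1.42 CPM (fold change -0.40, edgeR adjusted p = 0.375), while Klk1 and Ly6d had at most 5 reads in any library. The part of these cells in the Siglech value was not tested.

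The next 4 genes encode receptors for soluble ligands and a selectin ligand, and none of them was called. P2ry12 and P2ry13 encode G protein-coupled receptors for ADP, and P2ry12 guides microglial processes toward released nucleotides. P2ry12 stood at 5.81, 5.93 and 6.46 CPM in OIR-CIH and at 7.43, 8.56 and 5.53 CPM in OIR-Norm. OIR-Norm replicate 3 was the lowest library of all 6, so the groups overlapped, and the fold change of -0.23 had a 95% interval of -0.58 to 0.12 (SE 0.16, edgeR adjusted p = 0.567).

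P2ry13 stood at 1.57, 1.32 and 1.88 CPM in OIR-CIH and at 1.88, 2.39 and 2.07 CPM in OIR-Norm. The groups were apart only beyond the printed digits, with 71 reads in the highest OIR-CIH library and 58 reads in the lowest OIR-Norm library, which differ in depth. The fold change was -0.39 (SE 0.23, 95% interval -0.88 to 0.10, edgeR adjusted p = 0.482). P2ry13 (chr3:59207892-59210882, minus strand) and P2ry12 (chr3:59216272-59262871, minus strand) lie 5.4 kb apart inside the body of Med12l, which is transcribed from the opposite strand and shares 9 exonic bases with P2ry12 and none with P2ry13.

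Gpr34 encodes a receptor for lysophosphatidylserine (chrX:13632089-13640858, plus strand, inside the body of Cask on the opposite strand with no shared exonic base). Its CPM was 2.98, 4.89 and 3.04 in OIR-CIH and 4.25, 3.44 and 4.74 in OIR-Norm. OIR-CIH replicate 2 was the highest of all libraries and the other 2 OIR-CIH libraries the lowest, so the groups intermixed, and the fold change of -0.20 had a 95% interval of -0.66 to 0.27 (SE 0.21, edgeR adjusted p = 0.724). Without OIR-CIH replicate 2 it was -0.46.

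Selplg encodes the selectin ligand PSGL-1, which leukocytes in general carry (chr5:113818536-113832644, minus strand, 18019 bases from Tmem119). It was at 3.96, 3.68 and 4.47 CPM in OIR-CIH and at 5.26, 5.79 and 4.08 CPM in OIR-Norm. As with P2ry12, OIR-Norm replicate 3 reached down into the OIR-CIH range, and the fold change was -0.31 (SE 0.17, 95% interval -0.68 to 0.063, edgeR adjusted p = 0.462). Without OIR-Norm replicate 3 the fold changes were -0.44 for Selplg and -0.39 for P2ry12, neither of them past the adjusted threshold.

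The other 2 genes encode a surface protein and a secreted protein. Tmem119 encodes a transmembrane protein used widely to tell microglia from incoming macrophages (chr5:113793729-113800516, minus strand). It was the exception in direction, at 1.92, 2.67 and 2.65 CPM in OIR-CIH and 2.82, 2.39 and 1.70 CPM in OIR-Norm. The libraries of both groups intermixed, and the fold change of 0.09 had a 95% interval of -0.42 to 0.59 (SE 0.23, edgeR adjusted p = 0.898). That interval takes in both no change and a fold change like that of P2ry13 at -0.39.

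Olfml3 encodes a secreted olfactomedin-like protein that blood vessels can also produce (chr3:103722222-103738001, minus strand). It had 12.1, 11.9 and 14.5 CPM in OIR-CIH and 15.4, 14.6 and 14.01 CPM in OIR-Norm, the most reads of the 9 genes. Only OIR-CIH replicate 3 overlapped with OIR-Norm, and the fold change of -0.18 had the narrowest interval, -0.42 to 0.053 (SE 0.11, edgeR adjusted p = 0.489). Beside it, the 9 vascular mural cell markers summed to 87.2 to 133.3 CPM in OIR-CIH and 95.1 to 229.98 CPM in OIR-Norm, and their part in the Olfml3 value was not tested.

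**Figure D2:**
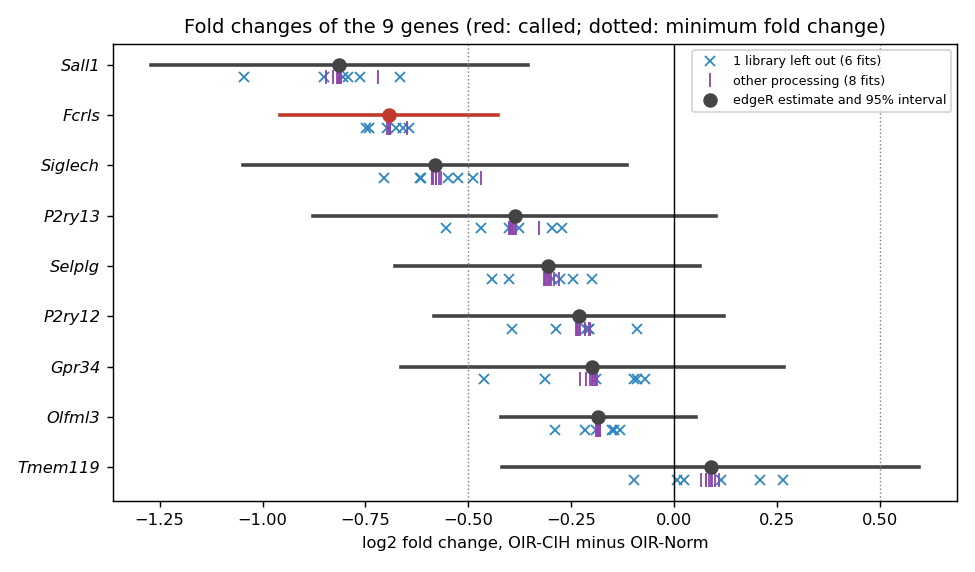
Log2 fold change of OIR-CIH against OIR-Norm (horizontal axis) for each of the 9 genes, with the edgeR estimate (dot), its 95% interval (line), the values when 1 library was left out (crosses) and under 8 other ways of processing (ticks); red marks the called gene. Fcrls keeps within -0.75 to -0.65 in all 14 alternatives, while Tmem119 crosses 0.

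Levels of different genes are compared here only per length, as TPM, which divides reads by exonic length and scales each library to the same total. By that scale Fcrls led with a mean of 13.8 TPM over the 6 libraries, then came P2ry12 (10.4 TPM), Olfml3 (8.93 TPM) and Gpr34 (7.46 TPM), then Selplg (4.25 TPM), Tmem119 (4.06 TPM), P2ry13 (2.94 TPM), Siglech (2.39 TPM) and Sall1 (2.20 TPM). Fcrls was above P2ry12 in 6 of 6 libraries and Gpr34 above Selplg in 6 of 6. Selplg was above Tmem119, and Siglech above Sall1, in 4 of 6 libraries, and each other neighbour held its place in 5 of 6, so no order can be read within those pairs. In OIR-CIH, Fcrls (10.3 ± 0.403 TPM) came down to near P2ry12 (9.29 ± 0.768 TPM), while in OIR-Norm it stood above it (17.4 ± 0.867 against 11.5 ± 2.56 TPM, SD, n = 3 each). This order rests on the length used. Per kb of the median coding transcript in place of all exonic bases, Selplg (10.99 CPM per kb) stood above Fcrls (5.43). Olfml3 (4.34) also stood above P2ry12 (3.07), and Siglech (1.12) above P2ry13 (0.73). The Selplg value rests on a median coding transcript of 413 bases, against 4272 exonic bases, the shortest such transcript of the 9. Selplg aside, Fcrls led on both lengths.

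Among libraries of the same group, the 9 genes varied in different directions. After each group's mean was taken off, 19 of the 36 gene pairs had a Pearson r above 0 across the 6 libraries, with a median r of 0.11. The highest was 0.949 between P2ry12 and Selplg and the lowest -0.801 between P2ry13 and Gpr34. Fcrls and Sall1, with the largest fold changes, had an r of -0.741. Among 14791 other genes, those with the highest mean r to the 9 were Cyb561a3, Bcr, Chrna7, Alg9 and Igfbpl1, with a mean r of only 0.45. With 6 libraries these correlations are descriptions, and points share depth and scaling.

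The wider set of microglial genes gives the setting for the 9. The 19 genes shared by microglia and other macrophages (Aif1, Itgam, the C1q chains, Ctss and others) all had a fold change below 0, with a median of -0.46. Of these, 13 had an unadjusted p under 0.05 (13.4% of all genes did). EdgeR called 1 (0.315% of all genes) and DESeq2 2 (0.674% of all genes). The gene called by edgeR was Mpeg1, encoding the pore-forming protein perforin-2, at 13.5 ± 0.623 CPM in OIR-CIH and 22.1 ± 2.67 CPM in OIR-Norm (SD, n = 3 each), a fold change of -0.71 (edgeR adjusted p = 0.0123). The call of Mpeg1 was lost without OIR-CIH replicate 1 (-0.68, edgeR adjusted p = 0.0928) and without OIR-CIH replicate 2 (-0.73, edgeR adjusted p = 0.0506). Lyz2, encoding lysozyme, had -0.88 (edgeR adjusted p = 0.0518, DESeq2 adjusted p = 0.000146) and Cd68, encoding a lysosomal protein, -0.73 (edgeR adjusted p = 0.185). Summed over the 19, CPM was 128.5 to 138.8 in OIR-CIH and 164.5 to 189.2 in OIR-Norm, without overlap. The paper reports Csf1 as lower in OIR-CIH by RNA-seq and also by qPCR on a larger set of retinas. The part of its table of changed genes available here lists only genes that were higher, so Fcrls, Mpeg1, Lyz2, Cx3cr1 and Spp1 could not be looked up. The gene lists were written with earlier results of these data known.

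Of 27 other genes named as homeostatic microglial markers, 21 had a fold change below 0 and 6 above, the median was -0.24 and none was called by edgeR, while 7 had an unadjusted p under 0.05, against 13.4% of all genes. Cx3cr1, the fractalkine receptor, had the lowest p, with 8.24, 7.32 and 11.6 CPM in OIR-CIH and 13.9, 15.3 and 13.6 CPM in OIR-Norm. Its groups did not overlap, and the fold change of -0.64 missed the adjusted threshold by edgeR (adjusted p = 0.14) and passed it by DESeq2 (adjusted p = 0.00868). Cd33, a sialic acid-binding lectin, had -0.82 and Nrros, which holds latent TGF-β on microglia, -0.38 (edgeR adjusted p = 0.258 and 0.296). The lowest value in the list, that of Crybb1, belonged to a crystallin with 1330 reads in OIR-Norm replicate 2 and 61 to 160 reads in the other 5 libraries.

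Partners of the 9 were read from lists by role. Among 16 genes of purinergic signalling, which include the other nucleotide receptors, ectonucleotidases and adenosine receptors, 10 were below and 6 above 0. Of these 16, 6 had an unadjusted p under 0.05, against 13.4% of all genes, and none was called by edgeR or DESeq2. The lowest p-values belonged to the ADP receptor gene P2ry1 (-0.39), the adenosine receptor gene Adora1 (-0.27) and the UDP receptor gene P2ry6 (-0.67), with edgeR adjusted p = 0.284 to 0.32. Among 19 tested genes of the TGF-β pathway, selectins, adaptors and microglial transcription factors, 16 were below and 3 above 0. Of these 19, 5 had an unadjusted p under 0.05, against the same 13.4% of all genes, and none was called by edgeR or DESeq2. Tyrobp, a signalling adaptor that Siglech uses, had -0.56 (edgeR adjusted p = 0.211) and the TGF-β receptor gene Tgfbr2 -0.70 (edgeR adjusted p = 0.308), the latter with overlapping groups. These lists share 3 and 7 genes with the 2 microglial lists.

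Genes known to rise in disease-associated microglia formed the next list. Of 15 tested, 12 were below and 3 above 0, and the median was -0.31. An unadjusted p under 0.05 was found for 6, against 13.4% of all genes. DESeq2 called 2 (0.674% of all genes) and edgeR 1 (0.315% of all genes). The gene called by edgeR was Spp1, encoding osteopontin, which other retinal cells also make, with 7.25 ± 0.529 CPM in OIR-CIH and 12.9 ± 1.77 CPM in OIR-Norm (SD, n = 3 each), a fold change of -0.83 (edgeR adjusted p = 0.0143). That call was lost without OIR-CIH replicate 1 (-0.78, edgeR adjusted p = 0.0983) and without OIR-CIH replicate 3 (-0.83, edgeR adjusted p = 0.0667). Csf1, a growth factor for microglia, had -0.70, which missed the adjusted threshold by edgeR (adjusted p = 0.157) and passed it by DESeq2 (adjusted p = 0.00951). Itgax, an integrin, had -1.63 (edgeR adjusted p = 0.16). It rested on few reads, 21 over the OIR-CIH libraries and 65 over the OIR-Norm libraries, and DESeq2 gave it no adjusted p.

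**Figure D3:**
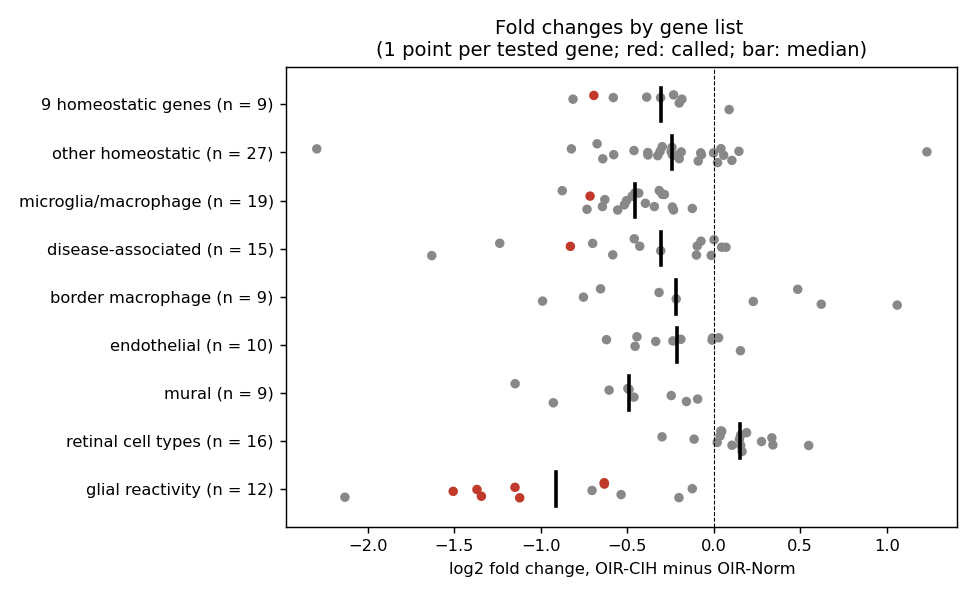
Log2 fold change of OIR-CIH against OIR-Norm (horizontal axis) for every tested gene of 9 gene lists (rows), with called genes in red and the list median as a bar. The 9 homeostatic genes have a median of -0.31, the macrophage-wide genes -0.46 and the glial reactivity genes -0.91, and the retinal cell type genes sit to the right at 0.15.

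To set the 9 genes beside other genes of the macrophage lineage, each was divided by the summed CPM of the 19 macrophage-wide genes of its library. These 19 were listed with earlier results known, and all had a fold change below 0, among them Mpeg1, Lyz2 and Cd68. A loss of separation after this division is therefore partly built in. On this scale 1.06% of all tested genes were lower in every OIR-CIH library and 57.1% higher, since the sum itself was lower in OIR-CIH. None of the 9 was lower without overlap. Fcrls was 5.13%, 4.26% and 4.44% of the sum in OIR-CIH and 5.75%, 4.84% and 6.19% in OIR-Norm, and its groups overlapped (exact two-sided permutation p = 0.2, where 3 against 3 libraries cannot give less than 0.1). Sall1 had means of 1.55% and 2.06% (exact two-sided permutation p = 0.3) and Siglech of 1.199% and 1.353% (exact two-sided permutation p = 0.2). P2ry12 had 4.53% and 3.99% and Tmem119 1.80% and 1.28%, higher on average in OIR-CIH with overlapping libraries. Olfml3 was higher without overlap, at 9.44%, 8.89% and 10.45% in OIR-CIH and 8.46%, 7.70% and 8.52% in OIR-Norm (exact two-sided permutation p = 0.1). The means of P2ry13 (1.19% and 1.18%), Selplg (3.02% and 2.81%) and Gpr34 (2.72% and 2.34%) also stood near each other relative to their spread.

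**Figure D4:**
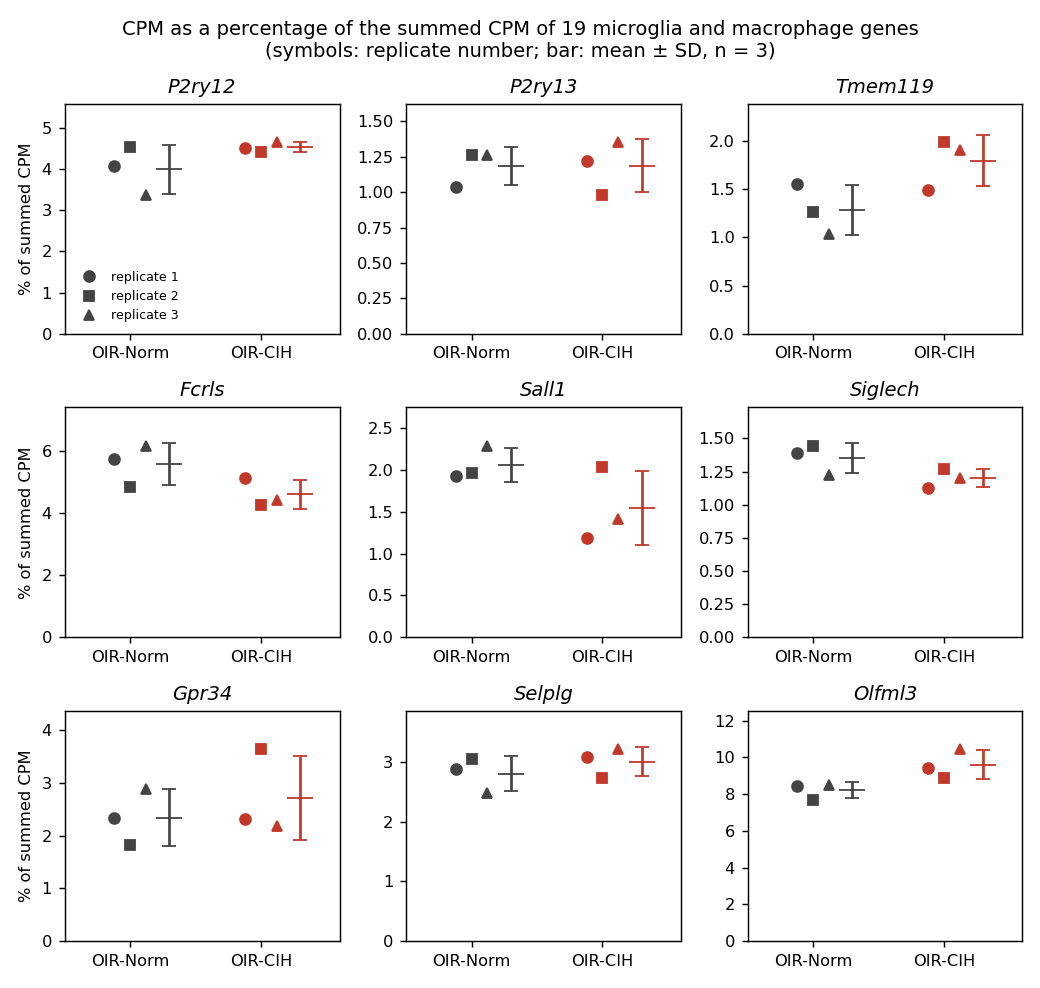
CPM of each of the 9 genes as a percentage of the summed CPM of 19 genes shared by microglia and macrophages (vertical axes, starting at 0) in the OIR-Norm (grey) and OIR-CIH (red) libraries, with the mean ± SD and the replicate number as symbol. Only Olfml3 separates, with OIR-CIH at 8.89% to 10.45% and OIR-Norm at 7.70% to 8.52%.

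Within the 9, the ratio of Fcrls to Tmem119 reads was 3.43, 2.14 and 2.33 in OIR-CIH and 3.71, 3.84 and 6.00 in OIR-Norm. It was lower in all OIR-CIH libraries (exact two-sided permutation p = 0.1, the smallest this design can give). The ratio of Fcrls to P2ry12 reads was 1.14, 0.965 and 0.955 against 1.41, 1.07 and 1.84, with overlapping groups (exact two-sided permutation p = 0.2). These pairs were chosen because their members differed in fold change in the same libraries. A lower ratio in OIR-CIH was therefore likely from the start, and the permutation p-values are no independent test.

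Other cells that could hold some of the 9 transcripts were checked by their own markers. Border and perivascular macrophage genes (9 genes) summed to 14.4, 13.6 and 18.9 CPM in OIR-CIH and 19.3, 20.8 and 21.2 CPM in OIR-Norm. An unadjusted p under 0.05 was found for 3 of them, against 13.4% of all genes, and none was called by edgeR or DESeq2. Mrc1, the mannose receptor gene, had -0.99, F13a1 -0.75 and Lyve1, which lymphatic vessels share, -0.32 (edgeR adjusted p = 0.248, 0.296 and 0.299). Their part in the values of the 9 genes was not tested. Among markers of circulating cells, Ly6g and Cd3e had no read in any library, Ly6c2 at most 1 read, and the platelet gene Ppbp at most 2 reads. In the monocyte and neutrophil list, Ccr2 had 6 reads over the OIR-CIH and 25 over the OIR-Norm libraries, and Plac8 15 and 5. In the lymphocyte list Cd8a stood at 3.71 ± 1.04 CPM in OIR-CIH and 2.79 ± 0.718 CPM in OIR-Norm (SD, n = 3 each), and Cd79a and Cd4 were under 0.5 CPM on average. In the platelet list Itga2b stood at 4.78 ± 0.217 and 3.82 ± 0.721 CPM, and Gp1bb and Pf4 were under 1 CPM on average. The monocyte and neutrophil list (10 genes, 5 tested) summed to at most 1.51 CPM, the highest in OIR-Norm replicate 2. None of the 4 tested lymphocyte or 4 tested platelet genes was called, and the 6 tested plasmacytoid dendritic cell genes split 3 below and 3 above 0 with none called, by edgeR or DESeq2. At an unadjusted p under 0.05 stood 2 of the plasmacytoid, 2 of the 5 tested monocyte and neutrophil, 0 of the lymphocyte and 0 of the platelet genes. The share over all genes was 13.4%. The monocyte and neutrophil genes also held no call by either tool.

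Other compartments of the retina had the following values beside the 9 genes. Of 12 glial reactivity genes, 7 were called lower (C4b, Serpina3n, Gfap, Cp, Stat3, Socs3 and Timp1), against 0.21% of all genes. Among them was Gfap, the intermediate filament of astrocytes and stressed Müller glia, with 63.8 ± 3.19 CPM in OIR-CIH and 141.6 ± 20.1 CPM in OIR-Norm (SD, n = 3 each). Its fold change was -1.15 (edgeR adjusted p = 0.000188). Without OIR-CIH replicate 1, 2 or 3 the calls of Socs3 (edgeR adjusted p = 0.178, 0.0781 and 0.119) and Timp1 (edgeR adjusted p = 0.202, 0.129 and 0.16) were lost, and without OIR-Norm replicate 2 that of Timp1 (edgeR adjusted p = 0.11). That list was written with earlier results of these data known. The study's table had also been read, but its available part lists only genes that were higher. None of the 10 endothelial genes (8 below 0, median -0.21) or the 9 mural genes (9 below 0, median -0.49) was called by edgeR. None of these genes had separate groups, against 18.4% of all genes in either direction. By unadjusted p, 1 endothelial and 2 mural genes were under 0.05, against 13.4% of all genes. DESeq2 called 0 endothelial genes and 1 mural gene, against 0.674% of all genes. The lowest p-values belonged to Flt1 (-0.24), Esam (-0.34) and Cdh5 (-0.62) among endothelial genes and to Myh11 (-1.15), Rgs5 (-0.60) and Abcc9 (-0.93) among mural genes, with edgeR adjusted p = 0.268 to 0.506. Myh11 passed by DESeq2 (adjusted p = 0.0466) and, by edgeR, without OIR-Norm replicate 3 (adjusted p = 0.00535). Pecam1, a vessel marker, was at 24.4 CPM in OIR-Norm replicate 2 and 8.32 to 12.5 CPM in the other 5 libraries. Of 16 retinal cell type genes, 14 were above 0 with a median of 0.15, while 50.9% of all genes were below 0. An unadjusted p under 0.05 was found for 5, against 13.4% of all genes. DESeq2 called 1 (0.674% of all genes) and edgeR none (0.315% of all genes). Nr2e3 had 0.55 (edgeR adjusted p = 0.0537, DESeq2 adjusted p = 9.29e-06), Rlbp1 0.34 and Opn1mw -0.30 (edgeR adjusted p = 0.14 and 0.279). The CPM of every microglial gene is a share of the whole library, and the part of these other differences in it was not tested.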

How the data were processed

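The study's methods state that retinal RNA was extracted from 3 eyes per group and that stranded mRNA libraries were made from 250 ng total RNA. According to the study's methods and the submitters' processing notes, the authors aligned reads with STAR 2.7.9a, counted reads per gene with the same program and tested with DESeq. The methods name Ensembl 105 and the notes GRCm38, and the strand column used is not given in the sources used here. The deposited values are raw counts for 32285 gene identifiers, of which 99.6% carry a symbol in GENCODE M21 (GRCm38), the source of gene coordinates and exonic lengths here. Genes whose counts summed to 10 or more were tested with edgeR 4.0.16 in R 4.3.3 (TMM, quasi-likelihood, Benjamini-Hochberg over 20021 genes). Calls used the study's thresholds of 0.05 for the adjusted p and 0.5 for the size of the log2 fold change, and 63 genes were called (42 lower, 21 higher). CPM used TMM-scaled totals. Permutation tests were exact. The alternatives were DESeq2 1.42.0, limma 3.58.1, other scaling and filters, a replicate block and leaving out each library, and the fit was tested on simulated data. Depth was 26289905 to 38010151 reads per library.

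The 9 genes and all lists were chosen with earlier results of these data known. Outside the 9, the genes named are those called in each list and the 3 with the lowest p (the Y-linked list, given as a sum, and a gene not reported here aside), and by likeness the 5 with the highest mean r; Crybb1, Pecam1, Tcf4, Klk1, Ly6d and the circulating-cell markers beyond these were named for their levels after values were seen.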

Additional observations from a re-analysis of the deposited data

How the results depend on the processing

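For 8 of the 9 genes, all but Tmem119, the fold change was below 0 under all 14 alternatives. Tmem119 turned to -0.10 without OIR-Norm replicate 3, with a range over left-out libraries of -0.10 to 0.26, and was not called in any fit. Fcrls was called in 7 of the 14 alternatives. It missed the adjusted threshold with limma on log2(CPM + 0.5) (-0.65, adjusted p = 0.0549), with the replicate number as a block (-0.69, adjusted p = 0.0618) and without any single library except OIR-Norm replicate 2, with fold changes of -0.75 to -0.65, so that the number of the 9 genes called was 0 in those fits and 0 to 1 over the left-out libraries. No other gene of the 9 was called in any alternative. The median of the 9 went to -0.40 without OIR-CIH replicate 3 and without OIR-Norm replicate 3. Without OIR-Norm replicate 2, Crybb1 (-2.82 to 0.27 over the left-out libraries) and Pecam1 (-0.75 to 0.078) turned above 0, and without OIR-CIH replicate 3 the platelet and macrophage gene Pf4 (-0.0087 to 0.54) turned below 0.

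DESeq2 called 135 genes (101 lower, 34 higher), 63 of them shared with edgeR, and leaving out a library gave 29 (22 lower, 7 higher, without OIR-CIH replicate 1) to 97 (81 lower, without OIR-Norm replicate 3), with 13 higher without OIR-CIH replicate 2 and 31 higher without OIR-Norm replicate 1. Among macrophage-wide genes, DESeq2 and a total count of at least 1 each called 2, and leaving out a library gave 0 (OIR-CIH replicate 1 or 2) to 2 (OIR-Norm replicate 1). Among the 27 other homeostatic genes, DESeq2 called 1, as did the fit without OIR-CIH replicate 3. The cause was not tested.

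Libraries with the same replicate number had correlated deviations of 0.162, 0.143 and -0.238 over 14800 genes, so the numbers were not taken to pair them, and the replicate block called 68 genes, 48 shared with the fit without it. Depth was lowest for Siglech, P2ry13 and Tmem119, with 37 to 100 reads per library.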
